A study of Homo sapiens with 14 samples.

Results

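10 genes whose products carry out or guide RNA decay by the exosome, in the nucleus for all but DIS3L, were followed through all 14 libraries: MTREX, TENT4A, TENT4B and ZCCHC7 of the TRAMP complex, ZCCHC8 and RBM7 of the NEXT complex, the exosome nucleases DIS3 and DIS3L, and the exosome cofactors C1D and MPHOSPH6. These 10 genes were named by their role and were taken from 60876 annotated genes, and each was the sum of the reads of its transcripts. All 10 passed the filter on low counts and were among the 15426 genes tested. The libraries came from MDA-MB-231, an established triple-negative breast cancer cell line, and were poly(A)-selected and stranded. Each of the 7 groups had 2 replicates: a control, and cells harvested 10, 30 or 120 min after 5 µM of one compound was added, which was RBI2 in 3 groups and CX-5461 in the other 3. The study's methods speak of untreated control cells and other text of it of DMSO, the vehicle, and which one the control received was not settled. The names of the deposited tables carry other numbers in the place of the time than the labels do; the labels were followed here, which is right was not settled, and every time given rests on them. CX-5461 is an inhibitor of RNA polymerase I, and RBI2 is a ribosome biogenesis inhibitor whose effect on pre-rRNA polyadenylation the study examined. Nothing in the labels says that the replicates were separate cultures, so p-values measure the spread between these libraries, which may be technical.

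The nuclear exosome is a 3′ to 5′ RNA degrading machine that needs help to find and unwind its substrates. MTREX (also called MTR4) is the helicase that feeds RNA to it, and it works in different adaptor complexes: with a non-canonical poly(A) polymerase and a zinc knuckle protein in TRAMP, which adds short tails to nucleolar RNA such as aberrant pre-rRNA, and with ZCCHC8 and RBM7 in NEXT, which targets nucleoplasmic transcripts such as promoter upstream RNAs. TENT4A and TENT4B are the polymerases, DIS3 is the main nuclear exosome nuclease, DIS3L its cytoplasmic counterpart, and C1D and MPHOSPH6 help the exosome process rRNA precursors.

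On GRCh38, in the GENCODE annotation, the protein-coding TRAMP genes are MTREX at chr5:55307989-55425579 (plus strand), TENT4A at chr5:6713432-6757044 (plus strand), TENT4B at chr16:50152911-50235310 (plus strand), ZCCHC7 at chr9:37120574-37358149 (plus strand). The NEXT genes are ZCCHC8 at chr12:122471600-122500932 (minus strand) and RBM7 at chr11:114400030-114414203 (plus strand). The nucleases are DIS3 at chr13:72752169-72782096 (minus strand) and DIS3L at chr15:66293217-66333898 (plus strand), and the cofactors C1D at chr2:68041130-68110948 (minus strand) and MPHOSPH6 at chr16:82147798-82170224 (minus strand). Reads over all exons of a gene, untranslated parts included, count towards it.

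The libraries held 14112299 to 24849354 estimated reads, with a median of 16305236, and a member had between 258 and 1935 reads in a library. The 2 control libraries were further apart than any other pair: 1412 genes differed by more than 2-fold between them, against 461 to 629 in the other groups, and control replicate 2 had 20.6% mitochondrial reads against 8.14% to 11.3% elsewhere. Control replicate 2 was the higher control for 9 of the 10 members and the highest of all 14 libraries for 9. Counts of members called against the control are therefore also given without each control library. Such fits hold no pair of controls, so the spread behind their p-values comes from the treated groups alone. That holds too for their calls in comparisons without the control. Of markers of the cell line, VIM ranged from 2779 to 3387 CPM (counts scaled by the size of the library) and PGR was at 0 in 14 of 14 libraries, but KRT8, listed as absent or low, was at 411.5 to 626.0 CPM and ERBB2 at 52.5 to 77.9 CPM.

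The promoters of DIS3 and RBM7 are shown because these members had the largest changes called, that is, with an adjusted p under 0.05 by edgeR's quasi-likelihood test. They are RefSeq windows of GRCh38.p14 from 250 bases before to 50 after a start, on the strand of the gene. The DIS3 window is chr13:72781851-72782150 on the minus strand and the RBM7 window is chr11:114400416-114400715 on the plus strand. Capitals mark matches on either strand to CCGGAAG (ETS), GCATGCGC (NRF1 core), GGGCGG (GC box), CCAAT, TGACGTCA (CRE) or TATAAA, which do not overlap each other here.

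DIS3: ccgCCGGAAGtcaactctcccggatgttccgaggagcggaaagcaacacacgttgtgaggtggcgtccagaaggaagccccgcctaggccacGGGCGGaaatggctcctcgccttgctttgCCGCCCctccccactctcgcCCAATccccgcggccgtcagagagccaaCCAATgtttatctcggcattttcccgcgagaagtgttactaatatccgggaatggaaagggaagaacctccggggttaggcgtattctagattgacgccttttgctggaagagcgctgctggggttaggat
RBM7: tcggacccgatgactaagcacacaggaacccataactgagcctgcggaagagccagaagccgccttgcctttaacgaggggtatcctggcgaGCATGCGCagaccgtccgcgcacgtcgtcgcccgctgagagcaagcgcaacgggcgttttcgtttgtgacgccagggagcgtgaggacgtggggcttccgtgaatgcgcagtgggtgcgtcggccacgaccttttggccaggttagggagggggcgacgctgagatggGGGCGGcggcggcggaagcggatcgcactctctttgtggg

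The DIS3 window held the ETS, GC box and CCAAT letters, and the RBM7 window the NRF1 core and GC box letters. Entries matched 9 members in 12 windows, and TENT4A was not among them. DIS3L, TENT4B and ZCCHC7 had 2 windows each, and those of DIS3L and of ZCCHC7 overlapped. Both windows of each held the GC box letters, so windows are not separate genes. The GC box letters were in 11 of the 12 windows and in 44.9% of all 34943 windows, the ETS letters in 3 and in 10.2%, the NRF1 core in 3 and in 3.02% (in each case 2 of the 3 are overlapping windows of ZCCHC7 that hold the same match), and CCAAT in 2 and in 34.6%. No member window held the CRE or TATAAA letters, which were in 1.84% and 11.6% of all windows. These matches are descriptions of letters and not of bound sites.

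Levels between genes were compared in TPM, a unit scaled by transcript length and library size. MPHOSPH6 stood highest, at a median of 84.7 TPM (75.6 to 93.6 over 14 libraries), above C1D in 14 of 14 libraries with no overlap of their ranges. C1D followed at 60.0 TPM (42.2 to 65.3), RBM7 at 44.1 (34.0 to 56.7), MTREX at 34.6 (24.6 to 40.8), DIS3 at 27.0 (18.7 to 42.3), ZCCHC8 at 23.9 (18.5 to 29.2), DIS3L at 22.3 (17.5 to 48.2), TENT4A at 19.3 (16.1 to 22.4) and ZCCHC7 at 14.6 (12.2 to 19.2). The upper end for DIS3L was control replicate 2, and the other libraries reached up to 27.5 TPM. TENT4B was the lowest, at 7.12 TPM (5.43 to 9.93), with its range below that of ZCCHC7. Between C1D and ZCCHC7 the range of each gene overlapped that of the next, so neighbours there were not apart by range. Genes further apart in the order could be: the lowest C1D level, 42.2 TPM, was above the highest of MTREX, ZCCHC8, TENT4A and ZCCHC7. By counts divided by mean effective length, RBM7 ranked 6 instead of 3 and TENT4A 4 instead of 8, with MPHOSPH6 and TENT4B at the same ends. C1D then ran from 37.6 to 56.0 and overlapped MTREX (40.2 to 60.3) and TENT4A (34.0 to 48.8). It was above MTREX in 7 of 14 libraries.

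**Figure D1:**
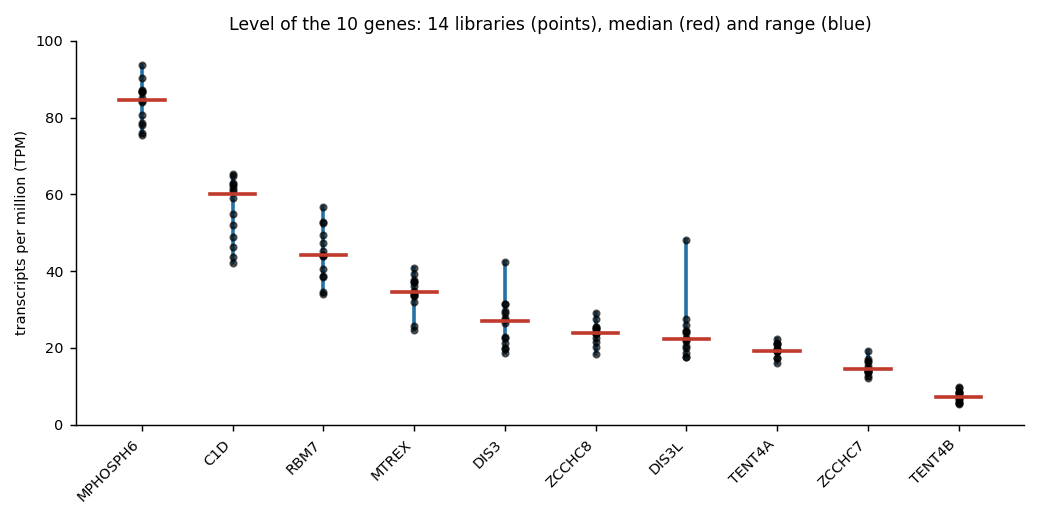
Level of each gene in TPM (vertical axis) in 14 libraries (points), with the median (red) and range (blue). MPHOSPH6 is highest with a median of 84.7 TPM and TENT4B lowest with 7.12 TPM, and only these ends are clear of their neighbours.

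The first question was whether either compound changed these genes against the control. After 120 min of RBI2, 6 of 10 members were lower than in the control and none was higher: the helicase MTREX, the polymerase TENT4A, the TRAMP zinc knuckle protein ZCCHC7, the NEXT RNA-binding subunit RBM7 and both nucleases. Over all genes 9.07% were called lower and 18% in either direction. In the 2 lowest of 10 equal bins of transcript GC content, which held 7 of the members, 33.2% and 22.4% of genes were called lower. The median log2 fold change of the members was -0.41, against 0.01 for all genes tested, and it was -0.56 without control replicate 1 and -0.25 without control replicate 2. In poly(A) RNA of bulk cells, fewer cells with a transcript and less transcript per cell cannot be told apart.

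DIS3 was at 76.4 and 102.6 CPM in the control libraries, 73.7 and 71.8 after 10 min of RBI2, 60.6 and 61.6 after 30 min, and 55.2 and 54.9 after 120 min. At 10, 30 and 120 min both RBI2 libraries lay below both controls. At 120 min it was down by 38.4% (log2 fold change -0.70 ± 0.15 SE, adjusted p = 0.0166). RBM7 was at 49.8 and 63.2 CPM in the control and 37.3 and 39.1 after 120 min of RBI2, with no overlap, and fell by 32.3% (-0.56 ± 0.12, adjusted p = 0.0157).

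MTREX was at 51.6 and 64.6 CPM in the control and 44.5 and 42.6 after 120 min of RBI2, so the groups did not overlap (-0.41 ± 0.11, adjusted p = 0.0302). TENT4A, at 62.3 and 77.6 against 52.4 and 52.7 CPM, changed by the same size (-0.41 ± 0.11, adjusted p = 0.0309). ZCCHC7 went from 24.1 and 28.0 to 19.6 and 18.7 CPM (-0.44 ± 0.11, adjusted p = 0.026; adjusted p = 0.0503 with no filter on low counts, which ends the call). DIS3L, which serves the cytoplasmic exosome, went from 47.6 and 62.9 to 40.6 and 42.0 CPM (-0.42 ± 0.12, adjusted p = 0.0412; adjusted p = 0.0506 with a replicate block, which ends the call).

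4 members were not called at that time. ZCCHC8, the NEXT scaffold, was at 37.5 and 45.8 CPM in the control and 32.5 and 35.2 after RBI2. MPHOSPH6 was at 43.6 and 49.8 against 37.2 and 40.3 CPM, and C1D at 30.7 and 28.7 against 27.0 and 23.7 CPM. TENT4B, the second polymerase, was at 22.4 and 28.2 against 27.3 and 26.8 CPM, inside the control range. In 9 of 10 members both RBI2 libraries were below both controls at 120 min, as they were for 27.7% of all genes.

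**Figure D2:**
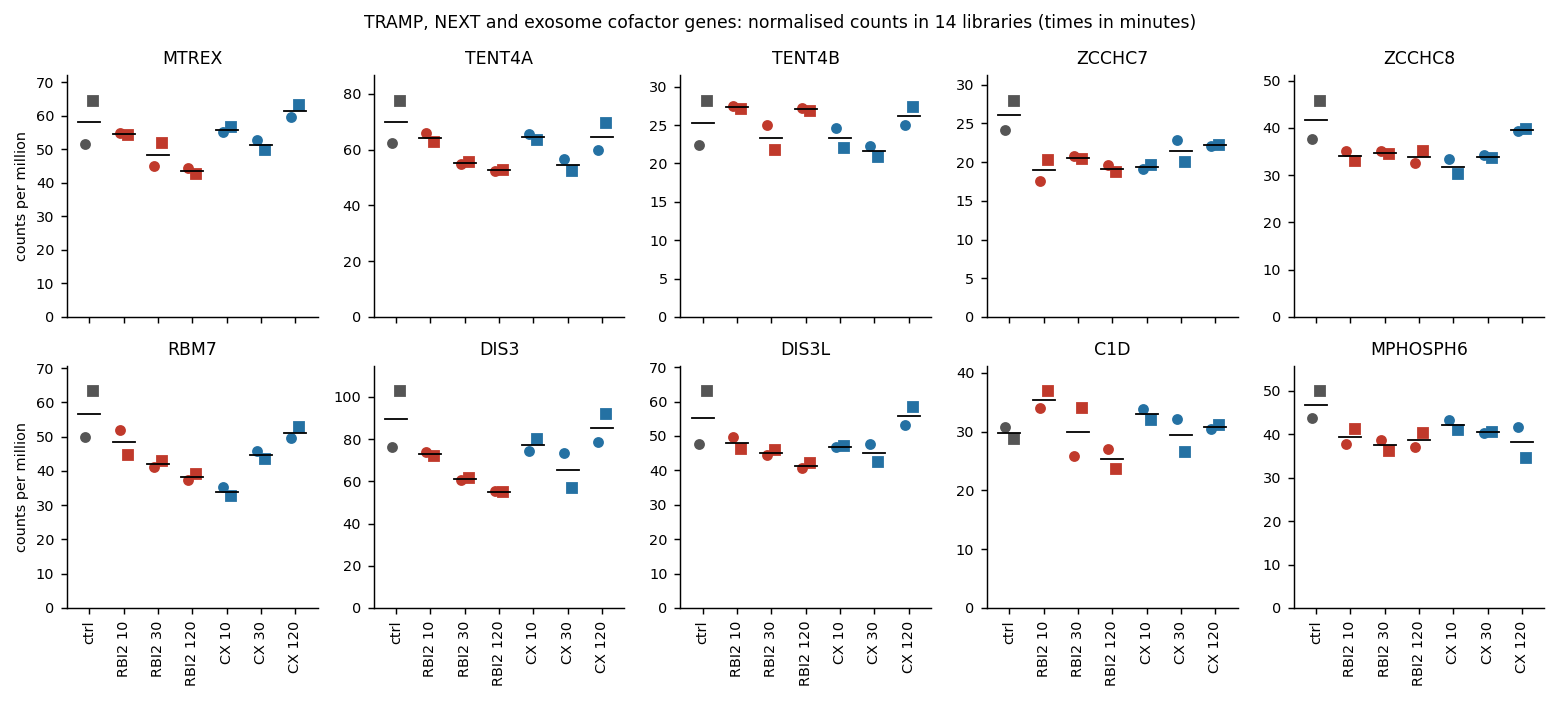
CPM (vertical axes, from 0) in each of the 14 libraries for the 10 genes, with replicate 1 as circles, replicate 2 as squares and group means as lines; grey is control, red RBI2 and blue CX-5461. DIS3 falls from 76.4 and 102.6 CPM in the control to 55.2 and 54.9 after 120 min of RBI2, and control replicate 2 is the highest library for 9 genes.

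These calls rested on few libraries. A fit that leaves out 1 control library holds no spread between controls, so its p-values do not measure that spread. Without control replicate 2, when 2.66% of all genes were called lower, RBM7 (-0.39, adjusted p = 0.0417) and DIS3 (-0.48, adjusted p = 0.0446) were the members still called, and MTREX (-0.25, adjusted p = 0.111), TENT4A (-0.25, adjusted p = 0.113), ZCCHC7 (-0.34, adjusted p = 0.0828) and DIS3L (-0.21, adjusted p = 0.177) were not. Without control replicate 1, 8 members were called, ZCCHC8 (-0.45) and MPHOSPH6 (-0.37) among them, when 22.5% of all genes were called lower and 43.1% in either direction. Without either RBI2 120 min library, which leaves 1 library in that group, all 6 calls were lost. Their log2 fold changes were then from -0.37 to -0.70, about as large as with both. All 6 were also lost when only the 4 libraries compared were fitted, at log2 fold changes from -0.41 to -0.69. The adjusted p ran from 0.301, shared by ZCCHC7, RBM7 and DIS3, to 0.329. That fit has fewer degrees of freedom and takes its spread from those 4 libraries alone, the 2 distant controls among them. The main fit shares its spread over all groups. Fits of 4 libraries without the control, between times of RBI2, gained member calls instead. Why the calls were lost here was not tested, and the loss does not show a smaller change. With an offset for effective length they were lost again (adjusted p from 0.0733 to 0.242), and the log2 fold change of DIS3L became -0.92, that of DIS3 -0.76, of ZCCHC7 -0.61, of RBM7 -0.52, of TENT4A -0.42 and of MTREX -0.29. Of the 14 fits that each left out 1 library, also libraries of groups not compared, DIS3L was called in 4, TENT4A in 10, MTREX and ZCCHC7 in 11, and RBM7 and DIS3 in 12.

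With CX-5461 against the control, RBM7 at 10 min was the one member called by edgeR as fitted here: 35.2 and 32.6 CPM against 49.8 and 63.2 (-0.73 ± 0.12, adjusted p = 0.00577). Over all genes 2.98% were called lower and 4.77% in either direction. The call held without either control library (-0.55, adjusted p = 0.0135 without replicate 2) and was lost without CX-5461 10 min replicate 2 (-0.65, adjusted p = 0.0636) and when only the 4 libraries compared were fitted (-0.72, adjusted p = 0.327). Without control replicate 1, 6 members were called at 10 min of CX-5461, along with 37.7% of all genes, and without control replicate 2 RBM7 was the 1 called, along with 3.01%. At 10 min DESeq2 called RBM7, ZCCHC7 (-0.41, adjusted p = 0.0473) and ZCCHC8 (-0.37, adjusted p = 0.0441), with 5.78% of all genes, and edgeR called ZCCHC7 with DESeq2's size factors, upper-quartile scaling or no mitochondrial genes (adjusted p from 0.0442 to 0.0469). RBM7 was at 45.7 and 43.4 CPM after 30 min of CX-5461 and 49.5 and 52.8 after 120 min, the latter overlapping the control.

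No member was called by edgeR in the other 4 comparisons with the control, in which few genes were called at all. After 10 min of RBI2 0.201% of all genes were called, and 3 members (12.9% of all genes) had an unadjusted p under 0.05 and 0 (1.14%) were called by DESeq2. After 30 min of RBI2 0.0713% were called, and 8 members (25.8% of all genes) had an unadjusted p under 0.05, while DESeq2 called 3 (6.37%). For CX-5461 at 30 min 0% of genes were called, with 3536 genes and 6 members at an unadjusted p under 0.05, while DESeq2 called 25 genes and 0 members. For CX-5461 at 120 min 0.0778% were called, with 1 member (12.4% of all genes) at an unadjusted p under 0.05 and 0 (0.577%) called by DESeq2. With no filter on low counts edgeR called DIS3 (-0.52, adjusted p = 0.000995) and RBM7 (-0.39, adjusted p = 0.0431) after 30 min of RBI2, with 6.7% of all genes, and DIS3 (-0.41, adjusted p = 0.0166) after 30 min of CX-5461, with 6.25%. The counts also depended on the control library used: without control replicate 1 edgeR called 7 members after 10 min of RBI2 (29.1% of all genes), 8 after 30 min of RBI2 (38.3%), 8 after 30 min of CX-5461 (39.3%) and 1 after 120 min of CX-5461 (21.5%). Without control replicate 2 it called 0 members in each, with 0% to 0.228% of all genes called.

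The second question was whether the compounds differed at the same dose and time, in 4 comparisons with 40 member tests. At 120 min 4 members were lower with RBI2 than with CX-5461, when 10.9% of all genes were called lower and 16.1% in either direction. DIS3 was at 55.2 and 54.9 CPM with RBI2 and 78.9 and 91.8 with CX-5461 (-0.63 ± 0.15, adjusted p = 0.0205). MTREX was at 44.5 and 42.6 against 59.8 and 63.4 CPM (-0.50 ± 0.11, adjusted p = 0.0162). DIS3L, at 40.6 and 42.0 against 53.2 and 58.5 CPM, differed by -0.43 ± 0.12 (adjusted p = 0.0364), and RBM7, at 37.3 and 39.1 against 49.5 and 52.8 CPM, by -0.42 ± 0.12 (adjusted p = 0.0354). None of these 4 pairs of groups overlapped. Upper-quartile scaling moved the median of all genes by 0.11 and the split of calls from 814 higher and 1676 lower to 1326 and 1068, and under it RBM7 (-0.32, adjusted p = 0.0709) and DIS3L (-0.33, adjusted p = 0.0631) lost their calls. All 4 were lost without CX-5461 120 min replicate 2, which leaves 1 library in that group. The differences were then -0.42 for MTREX, -0.49 for DIS3, -0.34 for RBM7 and -0.33 for DIS3L. With the length offset MTREX (-0.34, adjusted p = 0.171) and DIS3L (-0.21, adjusted p = 0.809) lost their calls. All 4 were lost too without either RBI2 120 min library, at log2 differences from -0.34 to -0.63. Leaving out 1 library at a time, of any group, kept DIS3L in 4 of 14 fits, RBM7 in 5, and MTREX and DIS3 in 11 each. TENT4A was called lower here too without control replicate 1 (-0.30, adjusted p = 0.0147; 18% of all genes called lower) or replicate 2 (-0.28, adjusted p = 0.0175; 16.8%), and ZCCHC8 without replicate 1 (-0.24, adjusted p = 0.0395).

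At 10 min the direction for RBM7 was the opposite: 52.0 and 44.8 CPM with RBI2 against 35.2 and 32.6 with CX-5461 (0.51 ± 0.12, adjusted p = 0.0441), where 3.06% of genes were called. This was near the threshold, and leaving out a library kept it in 2 of 14 cases, at log2 differences from 0.39 to 0.61. The length offset (0.47, adjusted p = 0.144) and the replicate block (0.51, adjusted p = 0.0654) ended it. At 30 min no member was called, with 0.013% of genes called, and 0 members had an unadjusted p under 0.05 or a DESeq2 call. Over the mean of the 3 times no member was called by edgeR as fitted here, with 8.59% of genes called. 2 members (26.7% of all genes) had an unadjusted p under 0.05, and DESeq2 called 2 (11.2%). With DESeq2's size factors (adjusted p = 0.0465) or no mitochondrial genes (adjusted p = 0.0491) edgeR called MTREX lower (-0.21 in both). With no filter it called DIS3 lower (-0.27, adjusted p = 0.00307). In this comparison MTREX and DIS3 were called lower when only the libraries compared were fitted or without either control library, and DIS3L without control replicate 2, with 21.8% to 22.8% of all genes called in those fits. Where no difference was called, the 95% intervals remained wide: at 120 min that of TENT4B was -0.22 to 0.31 and that of C1D -0.59 to 0.03 on the log2 scale.

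**Figure D3:**
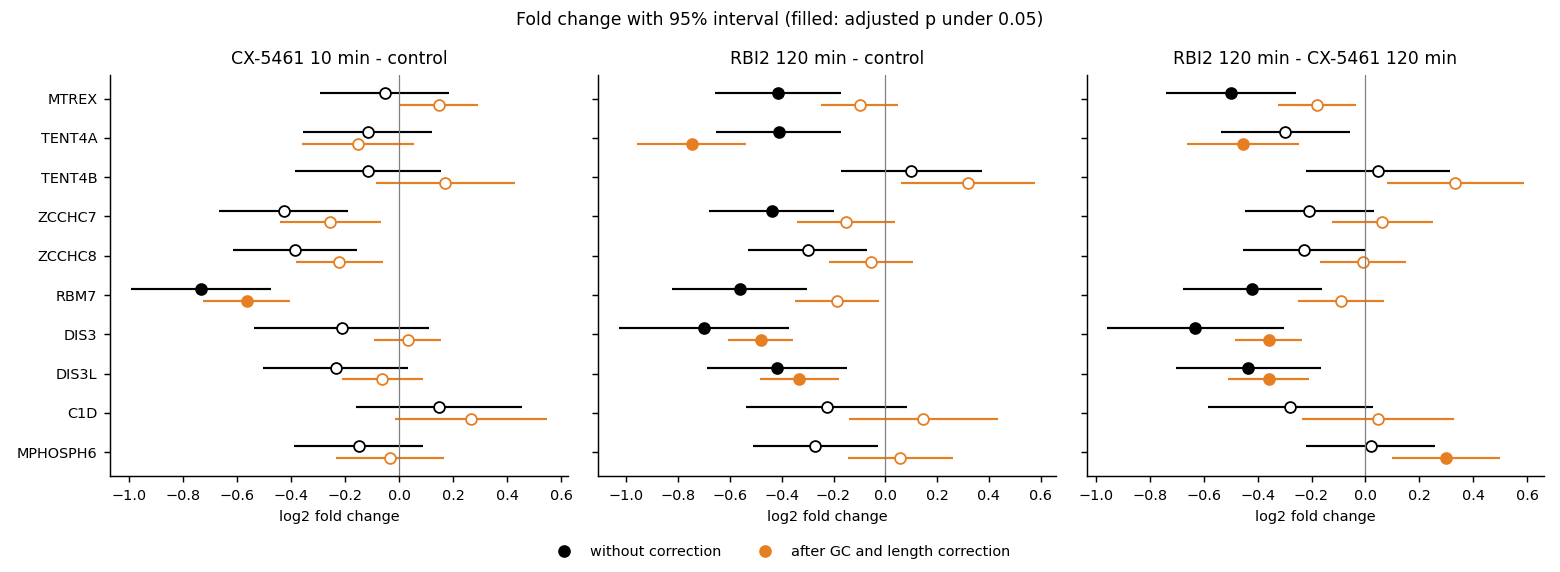
Log2 fold change (horizontal axis) with its 95% interval for the 10 genes in 3 comparisons, as counted (black) and after a GC content and length correction (orange), filled where the adjusted p was under 0.05. DIS3 is at -0.70 against the control after 120 min of RBI2 and at -0.48 after the correction.

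The third question was how levels moved between the labelled times of one compound, in 6 comparisons with 60 member tests. The times and their order are those of the labels, from which the names of the tables differ. RBM7 rose from 35.2 and 32.6 CPM at 10 min of CX-5461 to 49.5 and 52.8 at 120 min (0.59 ± 0.12, adjusted p = 0.0221), where 3.12% of genes were called. It lost the call when any 1 of those 4 libraries was left out, at log2 fold changes from 0.49 to 0.64. The other CX-5461 comparisons held no call, with 2.43% of genes called between 10 and 30 min and 0.013% between 30 and 120 min. In those 2 comparisons 2 and 5 members (11.8% and 19.3% of all genes) had an unadjusted p under 0.05, and DESeq2 called 0 in both (2.63% and 0.733%). Without a control library ZCCHC8 was higher at 120 than at 10 min of CX-5461 (0.32, adjusted p = 0.0269 without replicate 1, and 0.29, adjusted p = 0.0371 without replicate 2; 8.33% and 7.45% of genes called higher), and without control replicate 1 DIS3L was higher at 120 than at 30 min (0.31, adjusted p = 0.042; 7.9%). Within RBI2 no member was called between 10 and 30 min (0.188% of genes called) or between 30 and 120 min (0.013%), and 0 members had an unadjusted p under 0.05 or a DESeq2 call in either. DIS3 was called lower at 30 than at 10 min when only those 4 libraries were fitted (-0.24, adjusted p = 0.037), with 6.65% of genes called. Between 10 and 120 min, where 6.44% of genes were called, edgeR called 0 members, 5 (24% of all genes) had an unadjusted p under 0.05 and DESeq2 called 2 (10.2%). With no filter edgeR called DIS3 (adjusted p = 0.0243) and C1D (adjusted p = 0.0192), with 5.08% of genes. When only the 4 libraries compared were fitted, edgeR called 5 members lower at 120 min: MTREX (-0.32, adjusted p = 0.0139), TENT4A (-0.29, adjusted p = 0.0163), RBM7 (-0.34, adjusted p = 0.0323), DIS3 (-0.40, adjusted p = 0.00682) and C1D (-0.48, adjusted p = 0.0151), with 12.4% of all genes called lower. The same 5 were called without either control library (adjusted p from 0.016 to 0.0312), with 9.44% of all genes called lower without replicate 1 and 9.02% without replicate 2.

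Fold changes followed the GC content of the transcripts across genes to a degree that differed between comparisons, and the members are mostly AU-rich. 9 of the 10 members lay below the median GC of all genes tested, 48.1%, and 7 in the lowest 2 of 10 equal bins of GC: RBM7 had 35.7% GC, C1D 35.6%, MTREX 38.5% and DIS3 40.6%, whereas TENT4A had 56.3%. After 120 min of RBI2 the 1543 genes lowest in GC had a median log2 fold change against control of -0.38 and the 1543 highest of 0.41, and Spearman's rho over the 15426 genes, which are not independent replicates, was 0.60. For RBI2 against CX-5461 at 120 min rho was 0.50 and for CX-5461 at 10 min against control 0.42. It was 0.23 for CX-5461 at 120 min against control. Between the compounds it was 0.05 at 30 min and -0.17 at 10 min. Whether GC content has a part in the members' changes was not tested beyond the following correction.

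With a correction for GC content and length, chosen after seeing the data, 3 of the 6 calls after 120 min of RBI2 were kept, with 7.39% of genes called lower: DIS3 (-0.48 ± 0.06, adjusted p = 0.00343), DIS3L (-0.33 ± 0.07, adjusted p = 0.0159) and TENT4A (-0.75 ± 0.10, adjusted p = 0.00407), which moved further down. MTREX (-0.10, adjusted p = 0.365), RBM7 (-0.19, adjusted p = 0.127) and ZCCHC7 (-0.15, adjusted p = 0.279) were no longer called. The median of the members was -0.13 against -0.05 for all genes. Against CX-5461 at 120 min, DIS3 (-0.36, adjusted p = 0.00303), DIS3L (-0.36, adjusted p = 0.0069) and TENT4A (-0.45, adjusted p = 0.0103) were lower, with 11% of genes called lower, and MPHOSPH6 was higher (0.30, adjusted p = 0.0477; adjusted p = 0.0597 with a replicate block in the same fit, which ends the call), with 5.03% called higher, while MTREX (-0.18, adjusted p = 0.088) and RBM7 (-0.09, adjusted p = 0.438) were not called. Over the mean of the 3 times MTREX, TENT4A, DIS3 and DIS3L were lower with RBI2, by -0.14 to -0.24, with 13.8% of genes called lower. TENT4A (-0.50) and DIS3 (-0.31) were also lower at 120 than at 10 min of RBI2, with 5.5% of genes called lower.

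RBM7 at 10 min of CX-5461 was called with and without the correction against the control, against RBI2 at 10 min and against 120 min of CX-5461. The difference between 30 and 10 min of CX-5461 was called with the correction and not without it, although it was also called without control replicate 1 (adjusted p = 0.0254) or replicate 2 (adjusted p = 0.0203). After the correction RBM7 was lower than the control at 10 min (-0.56 ± 0.07, adjusted p = 0.000993; 3.95% of genes called lower), higher with RBI2 than with CX-5461 at 10 min (0.46 ± 0.07, adjusted p = 0.00419; 3.19% called higher), and higher at 30 min (0.44 ± 0.07, adjusted p = 0.00536; 2.85% called higher) and 120 min (0.47 ± 0.07, adjusted p = 0.00388; 2.58% called higher) of CX-5461 than at 10 min.

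**Figure D4:**
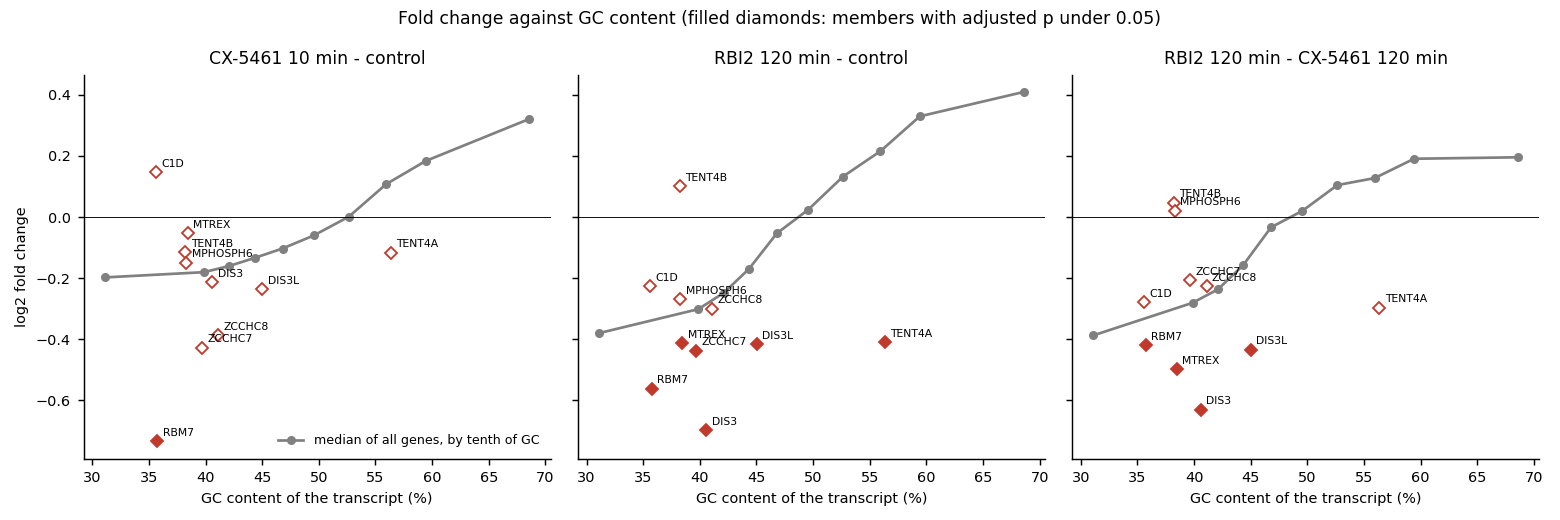
Log2 fold change (vertical axis) against GC content in percent (horizontal axis): median of all genes in each of 10 equal bins of GC (grey line) and the 10 genes (diamonds, filled where the adjusted p was under 0.05). In the middle panel the grey line runs from -0.38 in the lowest bin to 0.41 in the highest, and TENT4A lies below it at 56.3% GC.

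The reads of a gene were shared out between its transcripts by estimation, and the shares differed widely between libraries. RBM7-205, annotated as a target of nonsense-mediated decay, took 61.5% to 83.1% of RBM7 reads in 13 libraries but 18.7% in control replicate 2, where the protein-coding RBM7-201 took 64.8%. The DIS3 transcript of the same class, DIS3-204, took 53.2% in control replicate 2 and 0% to 37.0% elsewhere. DIS3L-206, of that class too, took 34.4% there and 0% to 31.8% elsewhere. By contrast the protein-coding MPHOSPH6-201 held 96.3% to 99.2% of its gene's reads in all 14 libraries, and TENT4A-201 96.3% to 99.6% in 13 libraries with 77.8% in control replicate 2. TENT4B was split mainly between the protein-coding TENT4B-202 (0% to 75.7%) and the decay target TENT4B-201 (9.9% to 72.1%), and the retained intron transcript ZCCHC8-203 took 21.9% to 49.9% of ZCCHC8 reads. RBM7-201 was 2064 bases long as quantified, against 3610 in the GENCODE annotation used here. C1D-204 was 736 bases long, against 2241. What this did to the shares and to the levels in TPM was not tested. A large share of RBM7-205 is therefore an estimate on these transcript models. No test was made on these shares. The 3′ end of DIS3 overlaps BORA on the opposite strand, which had 513 reads per library on average. That of MTREX overlaps PLPP1 (144) and the start of RBM7 overlaps C11orf71 (28.1), both on the opposite strand. An unnamed protein-coding gene on the strand of RBM7 also overlaps it (1.78). Whether the quantification used strand is not given in the sources used here.

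**Figure D5:**
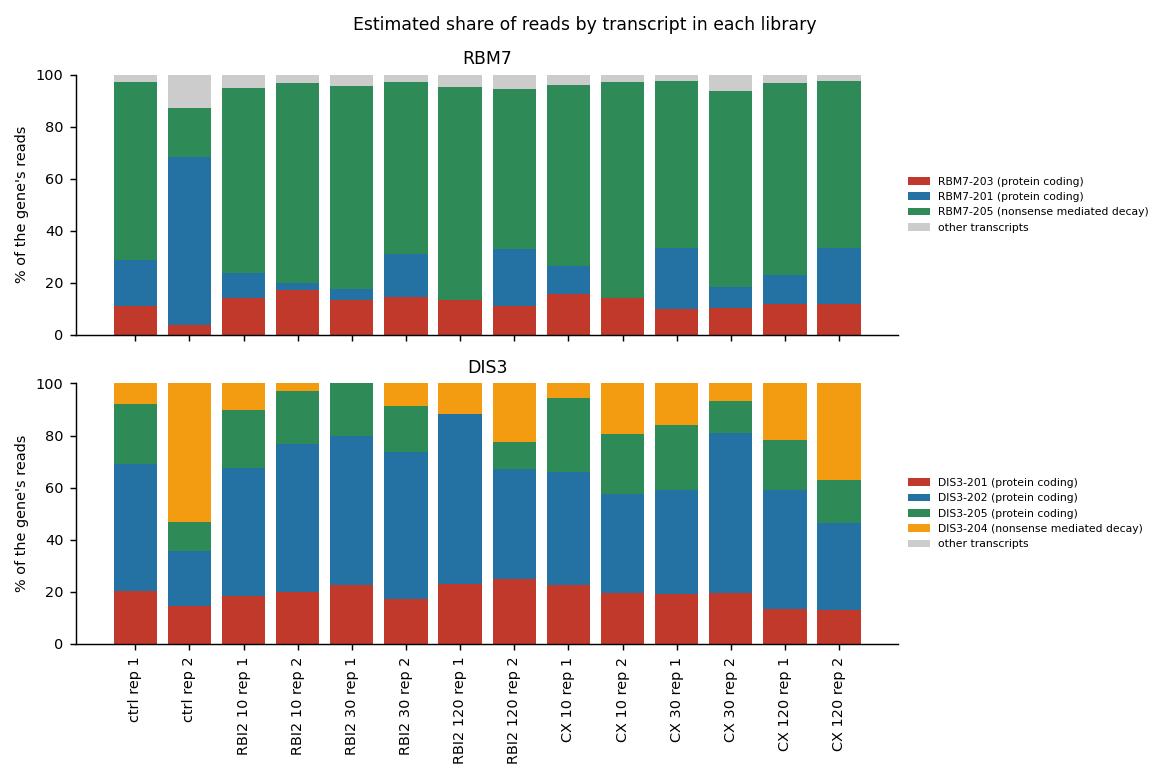
Estimated share of the reads of RBM7 (top) and DIS3 (bottom) by transcript, in percent, in each of the 14 libraries (horizontal axis). RBM7-205 takes 61.5% to 83.1% in 13 libraries and 18.7% in control replicate 2.

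Of 34 other genes of the pathway in 5 lists, all tested, 6 were lower and 4 higher than the control after 120 min of RBI2, with a median log2 fold change of -0.08, when 9.07% of all genes were called lower and 18% in either direction. Without control replicate 1 the counts were 12 lower and 10 higher, with 22.5% of all genes called lower and 20.6% higher, and without control replicate 2 they were 1 lower and 4 higher, with 2.66% and 5.62%. In the core exosome list of 10 genes, EXOSC10, its nuclear nuclease subunit, fell from 154.3 to 110.5 CPM on average (-0.48, adjusted p = 0.0417) and EXOSC9, a ring subunit, also fell (-0.38, adjusted p = 0.021), whereas EXOSC6, another ring subunit, rose (0.54, adjusted p = 0.0147). Among cytoplasmic partners the SKI scaffold SKIC3 fell (-0.78, adjusted p = 0.0203) and the SKI helicase SKIC2 rose (0.50, adjusted p = 0.0483). DIS3L2, of the same list, was higher by 0.23 (log2) without control replicate 1 and by 0.42 without replicate 2. In the same fits PAPOLG (-1.11 and -0.29) and TENT2 (-0.73 and -0.30), of the list of other polymerases, were lower. Without control replicate 2, EXOSC10 (-0.18, adjusted p = 0.162), EXOSC9 (-0.26, adjusted p = 0.0681), SKIC3 (-0.49, adjusted p = 0.0703) and SKIC2 (0.26, adjusted p = 0.216) lost their calls and EXOSC6 (0.35, adjusted p = 0.0222) did not. Without control replicate 1, EXOSC10 (-0.74), EXOSC9 (-0.50), SKIC3 (-1.04), SKIC2 (0.78) and EXOSC6 (0.75) were all called. Against CX-5461 at 120 min 5 of the 34 were lower and 3 higher, when 10.9% of all genes were called lower and 16.1% in either direction, led by SKIC3 (-1.01, adjusted p = 0.00959), the MTR4 partner NRDE2, which was higher (0.42, adjusted p = 0.0131), and NCBP1, the large cap-binding subunit, which was lower (-0.52, adjusted p = 0.0131). At 10 min, where 3.06% of all genes were called, NRDE2 was the gene of the lists called, and it was higher with RBI2 (0.48, adjusted p = 0.0109). Over the mean of the 3 times NRDE2 (0.31) and EXOSC6 (0.36) were higher and the nuclear exonuclease XRN2 lower (-0.26), with 8.59% of all genes called. With the GC content and length correction 4 of the 34 were lower and 1 higher than the control after 120 min of RBI2, with 7.39% of all genes called lower. Against CX-5461 5 were lower and 1 higher, with 11% of all genes called lower and 5.03% higher. In the other 5 comparisons with the control edgeR called 0 of the 34, with 4 to 12 at an unadjusted p under 0.05 (12.4% to 25.8% of all genes) and 0 to 5 called by DESeq2 (0.162% to 6.37%).

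Over the 14 libraries the genes most like the called members, among 10570 with a mean of at least 5 CPM, were PRRC1 for DIS3L (Pearson r 0.99), PNPT1 for DIS3 (0.99), GART for MTREX (0.97), FBXO5 for RBM7 (0.97), ZNF721 for TENT4A (0.96) and LYPD6 for ZCCHC7 (0.89). These correlations describe log2 CPM of libraries that share control replicate 2 and the GC trend.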

How the data were processed

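14 stranded poly(A) libraries were sequenced. Per the labels and methods, the authors removed reads aligned to the ribosomal DNA repeat and quantified the rest on GRCh38 transcripts with Salmon 1.3.0. The deposited tables hold estimated counts (expected counts) and TPM per transcript, with transcript lengths; the annotation release is not given in the sources used here. Groups and times were taken from the labels. Transcripts were matched to GENCODE by Ensembl ID (1.03% to 1.13% of reads unmatched), estimated counts were summed per gene and rounded, and edgeR 4.0.16 (R 4.3.3) quasi-likelihood tests were fitted on all 7 groups with TMM scaling and filterByExpr (minimum count 10), with Benjamini-Hochberg adjustment over 15426 genes and calls at an adjusted p under 0.05. The common biological coefficient of variation was 12.3%. CPM are TMM-scaled. DESeq2 1.42.0, other scalings, filters, a length offset, blocks and left-out libraries were alternatives, and a spline correction for GC content and length was added after seeing the data. The fit was tested on simulated data: it narrowly missed the recovery of changed genes first required of it, mostly among genes with low counts, other criteria were then set in its place, and the share of false calls was slightly above the nominal level.

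The members and gene lists were chosen with earlier results of these data known. All 10 members are named, with up to 3 called genes per comparison from the lists by smallest p, and for each called member the gene with the highest correlation. EXOSC10, SKIC2, DIS3L2, PAPOLG and TENT2 were added after their values were seen. Intervals cover the spread between libraries.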

Additional observations from a re-analysis of the deposited data

Results flagged for a closer look

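A direct comparison of the compounds at the same labelled time differed in 5 cases. At 120 min, RBI2 minus CX-5461 was -0.50 (log2) for MTREX, -0.42 for RBM7, -0.63 for DIS3 and -0.43 for DIS3L, and at 10 min it was 0.51 for RBM7. RBM7 thus differed in opposite directions at 2 times; the change of the difference between times was not tested. Leaving out a library kept the 10 min call in 2 of 14 fits, at log2 differences from 0.39 to 0.61. It kept the 120 min call in 5 of 14, at -0.34 to -0.47. The replicate block ended the 10 min call (adjusted p = 0.0654). After the GC content and length correction the 120 min difference was -0.09 (adjusted p = 0.438). With 2 libraries a group, no search for an outlying sample within a group was made; over the 14 libraries control replicate 2 stood apart, with 20.6% mitochondrial reads against 8.14% to 11.3%.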

How the results depend on the processing

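The 13 member calls kept their sign in all 24 refits, 312 values in all, but the count of calls moved. Of the 13, DESeq2 kept 13, the GC content and length correction 8, fits of only the libraries compared 6 and the length offset 4. Calls over all genes moved as well. In every comparison with the control DESeq2 called more genes than edgeR, for example 983 against 11 after 30 min of RBI2. After 120 min of RBI2 it was 3276 against 2772. The counts that follow, here and for the other pathway genes, are given without the share of all genes in each fit. They therefore do not show whether these genes moved more than the rest, which was not tested. Against the control the members had 7 calls; DESeq2 gave 12, the length offset 1, the GC content and length correction 4 (4 with a replicate block), only the libraries compared 0, and a log2 fold limit of 1 left 0 with adjusted and 0 with unadjusted p. Between the compounds they had 5 calls; upper-quartile scaling gave 3, the length offset 2, the correction 9 (8 with a replicate block), and the fold limit 0 and 0. Between times they had 1 call; DESeq2 gave 3, no filter 3, the correction 4 (4 with a replicate block), only the libraries compared 7, and the fold limit 0 and 0. Leaving out a library gave 1 to 38 calls against the control, 0 to 9 between the compounds and 0 to 9 between times, the highest counts without control replicate 1 and the lowest without an RBI2 120 min or CX-5461 library.

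The 34 other genes had 10 calls against the control; DESeq2 gave 21, no filter 31, the length offset 0, only the libraries compared 0, and the fold limit 0 and 0, with 0 to 110 when a library was left out. Between the compounds they had 12 calls; DESeq2 gave 20, no filter 19, the length offset 3, only the libraries compared 30, and the fold limit 1 and 1, with 3 to 32 when a library was left out. Between times they had 0 calls; DESeq2 gave 4, DESeq2's size factors 1, upper-quartile scaling 1, no mitochondrial genes 1, no filter 6, the replicate block 1, the correction 1 (1 with the block), and only the libraries compared 17, with 0 to 21 when a library was left out.

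The cause of these moves was not tested. Fits of fewer libraries have fewer degrees of freedom, and some of them gave fewer calls and some more. Same-numbered replicates deviated together in 3 of 21 pairs of groups (r over 0.1, range -0.18 to 0.18). The labels give them a shared number and nothing more. These correlations cannot show whether they also shared a batch. The replicate block left 11 member calls, without RBM7 at 10 min between the compounds (adjusted p = 0.0654) and DIS3L after 120 min of RBI2 (adjusted p = 0.0506). By counts per mean effective length RBM7 stood at rank 6 instead of 3, with 2 pairs of neighbours apart as by TPM.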
